A study of Mus musculus with 6 samples.

Results

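The genes of the proteasome, taken as every gene symbol made of Psm, a letter from a to g and a number, were compared between neuromuscular junction (NMJ) regions and the rest of the fibre (non-NMJ regions) in tibialis anterior muscle, which lies at the front of the lower leg, of mice. Of 48 such genes listed for the mouse, 40 had an array row annotated with exactly 1 gene symbol, out of 14860 genes with such a row, and these 40 are described here. Each of the 40 had 1 such row. Psma4, Psmd1 and Psme2 were found only in rows that carry several symbols, and Psma5, Psma8, Psmb3, Psmb5 and Psmg4 had no row under their own symbol. These 8 were not analysed here. The 3 NMJ arrays and 3 non-NMJ arrays came from 16-week-old ICR mice, an outbred strain, with no allele or agent given in the labels for either region. The labels' protocols describe staining for acetylcholinesterase, laser capture of 9973 NMJs and of an equal non-NMJ area of the same fibres, and amplification from 10 ng of RNA per sample before hybridisation to an exon array. The number of animals is not given in the labels, so the p-values measure only the spread between these samples, which may be partly technical. A captured NMJ region can hold Schwann cells, fibroblasts and other cells as well as the fibre, and in such samples fewer cells of a type and less RNA per cell cannot be told apart.

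The proteasome is the protease that degrades proteins tagged with ubiquitin. Its 20S core is a barrel of stacked rings, with alpha subunits in the outer rings and beta subunits, some of which cut proteins, in the inner rings. A 19S cap on the end of the barrel binds the ubiquitin tag, removes it, unfolds the protein and feeds it into the core. Its base holds a ring of ATPases and its lid holds the enzyme that removes ubiquitin. In skeletal muscle the proteasome is known for the breakdown of contractile proteins during wasting.

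Proteasome genes moved in both directions and by small amounts. Of the 40 genes, 5 rose and 3 fell in NMJ regions by limma at an adjusted p under 0.05, and 32 were not called. The background was as high: 14.4% of all 23332 rows were called higher and 8.63% lower, against 12.5% and 7.5% of the proteasome genes. In all, 20% of the proteasome genes were called, against 23% of all rows and 38% of the rows brighter than the median (23.7% higher, 14.4% lower), where 39 of the 40 genes lay. All values are log2 expression values, and differences are NMJ minus non-NMJ on that scale. The differences of the 40 genes ran from -0.75 (Psmb11) to 0.92 (Psmd5), so none reached 1, a doubling, which 8.2% of all rows did in either direction. Differences of at least 0.5 in size were found in 5 of the 40 (12.5%) and in 25.5% of all rows. The median difference of the 40 was 0.12, with 26 above 0 and 14 below, beside a median of -0.01 over all rows. Values of the regions did not overlap in 23 of the 40 genes, with all NMJ arrays above in 15 and below in 8. Over all rows the regions did not overlap in 41%, with all NMJ arrays above in 22.8% and below in 18.2%. The share without overlap was not taken for the rows brighter than the median, where 39 of the 40 genes lay. The counts of overlap are therefore not a like comparison.

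The counts depended on how the arrays were scaled. Array medians were 4.49 to 4.53 in NMJ samples and 4.37 to 4.38 in non-NMJ samples. Centring each array on its median put the median difference of all rows at -0.15, against -0.01 as deposited. It turned the median of the 40 genes to -0.02 and gave 2 called higher (Psmd3 and Psmd5) and 7 called lower, where 41.7% of all calls were higher, against 62.5% without centring. Quantile normalization gave 10 higher and 6 lower, and 46.6% of all calls were then higher. Psmd3 and Psmd5 were called higher and Psmd8 was called lower under each of these scalings and without each array in turn. The other 5 calls each ended in at least 4 of the 6 fits that left out an array.

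**Figure D1:**
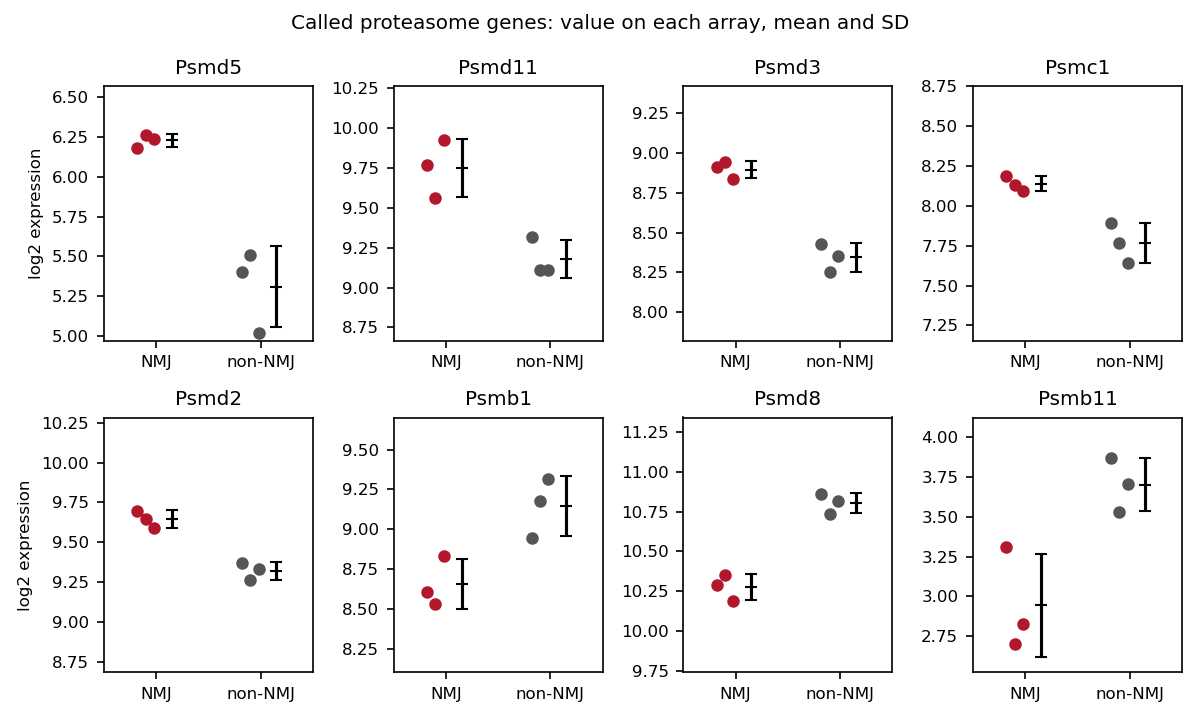
Log2 expression on each array (points), with the mean and SD (black), of the 8 proteasome genes called at an adjusted p under 0.05; NMJ samples are left and non-NMJ samples right in each panel, and each vertical axis spans the same range of log2 units. In all 8 panels the regions do not overlap, with Psmd5 averaging 6.23 in NMJ samples and 5.31 in non-NMJ samples.

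The stretches before the starts of called genes are shown because nuclei under the junction are known for transcription through ETS factors, which bind the N-box, an element with the core TTCCGG first described in acetylcholine receptor and related genes. RefSeq promoter windows of the build GRCm38.p6 matched 33 of the 40 genes, and the 250 bases before each start were searched on both strands. The 150 bases next to the start are printed 5′ to 3′ on the gene's strand, with the core or its reverse complement in capitals.
Psmd11, chr11:80428465-80428614, plus strand: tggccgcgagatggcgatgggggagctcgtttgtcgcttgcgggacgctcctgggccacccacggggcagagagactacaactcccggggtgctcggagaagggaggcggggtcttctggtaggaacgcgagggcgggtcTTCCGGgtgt
Psmd2, chr16:20651502-20651651, plus strand: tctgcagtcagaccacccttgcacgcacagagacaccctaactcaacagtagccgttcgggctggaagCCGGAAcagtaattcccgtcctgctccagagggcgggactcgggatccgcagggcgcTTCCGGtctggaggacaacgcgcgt
Psmc1, chr12:100110052-100110201, plus strand: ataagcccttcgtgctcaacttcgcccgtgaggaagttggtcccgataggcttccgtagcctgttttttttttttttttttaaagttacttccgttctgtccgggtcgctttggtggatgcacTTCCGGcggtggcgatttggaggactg
Psmd5, chr2:34870963-34871112, minus strand: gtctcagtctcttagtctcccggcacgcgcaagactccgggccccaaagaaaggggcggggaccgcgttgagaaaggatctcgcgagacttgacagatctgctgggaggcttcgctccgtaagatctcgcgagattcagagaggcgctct
Psmd8, chr7:29180674-29180823, minus strand: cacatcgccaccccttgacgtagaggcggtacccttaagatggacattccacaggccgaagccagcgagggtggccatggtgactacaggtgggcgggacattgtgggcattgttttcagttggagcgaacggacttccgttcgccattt
The core stood before the starts of Psmd11, Psmd2 and Psmc1, which rose, and not in the 250 bases before Psmd5, which rose, or Psmd8 and Psmb11, which fell. Psmd3 and Psmb1 were among the 7 genes without a window. The window of Psmb11 was searched but is not printed here.

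The core was present before 16 of the 33 proteasome genes (48.5%), and in 17 of their 35 windows (48.6%). It was present in 12.0% of all 32851 windows and 15.0% of the 21263 windows of protein-coding genes. These background windows were not matched to the proteasome genes for base content or level of expression. Of the genes with a window, 3 of 4 that rose and 0 of 2 that fell held it, beside 13 of 27 that were not called. Of its 23 matches, 17 ended within 100 bases of the start. The core of the antioxidant response element to which Nfe2l1 and Nfe2l2 bind, TGACNNNGC, was present before 4 of 33 genes (12.1%), against 10.2% of all windows, and all 4 (Psmb6, Psmc6, Psmd9 and Psmd12) were not called. CCAAT was present before 13 of 33 (39.4%), against 33.9% of all windows. The tandem element bound by interferon regulatory factors was present before 2 (Psmd4 and Psmd9), against 2.98% of all windows. Matches on either strand and of different motifs may share letters and were counted separately, and a match describes the letters only.

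**Figure D2:**
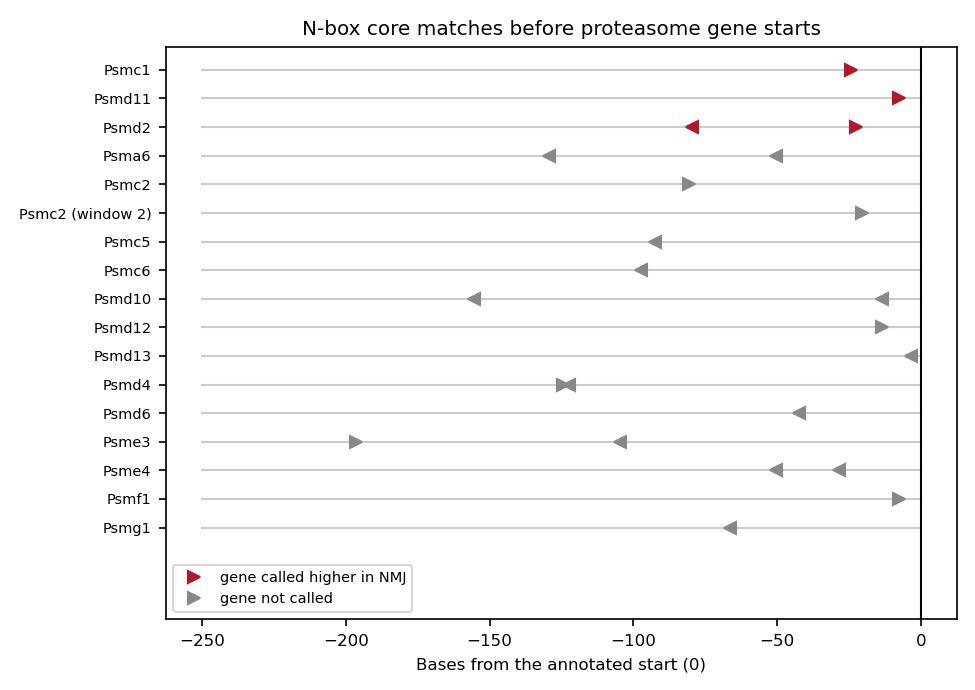
Position of each match to the N-box core in the 250 bases before the annotated start (0, black line) of proteasome genes, with triangles pointing right for the gene's strand and left for the other strand, in red for genes called higher in NMJ regions and grey for genes not called. The 3 red genes and the 13 grey genes hold matches, 17 of 23 of them within 100 bases of the start. The matches of Psma6 lie in its window that begins at base 55398575 of the chromosome, not in its other window, at 55383972.

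The gene with the largest difference among the 40 was Psmd5, a chaperone that helps to assemble the base of the 19S cap and is not a part of the finished particle. Its values were 6.18, 6.26 and 6.24 in NMJ samples, against 5.40, 5.51 and 5.02 in non-NMJ samples. All NMJ values were higher, and the NMJ samples lay closer together than the non-NMJ samples. Psmd5 was 1.89-fold higher in NMJ regions (difference 0.92 ± 0.14, SE, n = 3 per region, limma adjusted p = 0.00626), and leaving out single arrays gave differences of 0.77 to 1.02. The other chaperones of the cap did not pass the test. Psmd9, which binds another ATPase during assembly, had values of 5.12, 5.29 and 5.52 in NMJ samples, against 5.26, 5.33 and 5.13 in non-NMJ samples. Psmd10, the chaperone also called gankyrin, had values of 6.91, 6.88 and 6.96 in NMJ samples, against 6.79, 7.09 and 6.83 in non-NMJ samples. For both genes the regions overlapped, with differences of 0.07 (95% interval -0.24 to 0.38) and 0.01 (-0.25 to 0.27), which fell below 0 under median centring (-0.07 and -0.13) and quantile normalization (-0.15 and -0.20).

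The lid of the 19S cap held genes that rose and a gene that fell. Of 8 measured lid genes, 2 rose, 1 fell and 5 were not called, with a median difference of 0.20. The 37.5% called is near the 38% of rows brighter than the median. Psmd3, a lid subunit that helps to hold the lid together, had values of 8.91, 8.94 and 8.84 in NMJ samples, against 8.43, 8.25 and 8.35 in non-NMJ samples. The regions stood well apart for this gene, with every NMJ value above every non-NMJ value. It was 1.47-fold higher in NMJ regions (difference 0.55 ± 0.09, SE, n = 3 per region, limma adjusted p = 0.00681). Psmd11, a lid subunit that braces the cap against the core, had values of 9.77, 9.56 and 9.93 in NMJ samples, against 9.32, 9.11 and 9.11 in non-NMJ samples. It was 1.49-fold higher (0.57 ± 0.12, SE, limma adjusted p = 0.0209), but was not called after median centring (0.43, limma adjusted p = 0.0549). Without NMJ replicate 1 or 3 or non-NMJ replicate 2 or 3 it was not called either, at limma adjusted p-values up to 0.0762.

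Psmd8, another lid subunit, went the other way. Its values were 10.29, 10.35 and 10.19 in NMJ samples, against 10.86, 10.74 and 10.81 in non-NMJ samples. Every NMJ value was lower, and Psmd8 was 1.44-fold lower in NMJ regions (-0.53 ± 0.09, SE, n = 3 per region, limma adjusted p = 0.00806). The fall was -0.44 after quantile normalization and -0.67 after median centring, and both were called.

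The other lid genes were bright and split by direction without passing the test. Psmd7, the partner of the lid's deubiquitinating enzyme, had values of 10.43, 10.51 and 10.42 in NMJ samples, against 10.16, 10.23 and 10.15 in non-NMJ samples. Its NMJ values were all higher, with a difference of 0.27 just outside the threshold (limma adjusted p = 0.0526). It was called after quantile normalization (0.34) and stood at 0.13 after median centring. Psmd6 had values of 10.02, 10.10 and 9.92 in NMJ samples, against 10.29, 10.46 and 10.26 in non-NMJ samples. Its NMJ values were all lower, with a difference of -0.32 (limma adjusted p = 0.0634), which was called after median centring (-0.46). Psmd12 had a difference of 0.25 (95% interval 0.04 to 0.46), again with no overlap. Psmd14, the deubiquitinating enzyme itself, had one of 0.14 (-0.13 to 0.42) and Psmd13 one of 0.10 (-0.14 to 0.35), and their regions overlapped; the difference of Psmd13 was -0.04 after median centring.

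In the base of the cap, 2 of 8 measured genes rose, 0 fell and 7 had differences above 0. The 25% called higher is near the 23.7% of rows brighter than the median that were called higher. Psmc1, an ATPase whose tail opens the gate of the core, had values of 8.19, 8.13 and 8.10 in NMJ samples, against 7.89, 7.76 and 7.64 in non-NMJ samples. All NMJ values were higher, and the gene was 1.29-fold higher (0.37 ± 0.10, SE, n = 3 per region, limma adjusted p = 0.0385). Psmd2, the scaffold where shuttle proteins dock, had values of 9.70, 9.65 and 9.59 in NMJ samples, against 9.37, 9.26 and 9.33 in non-NMJ samples. It was 1.25-fold higher (0.32 ± 0.08, SE, limma adjusted p = 0.0358). Neither gene was called after median centring. Psmc1 was called in 1 of the 6 fits that left out an array, the fit without non-NMJ replicate 1, at limma adjusted p-values of 0.0382 to 0.138, and Psmd2 in 0 of 6, at 0.0648 to 0.14. With the replicate number as a block, Psmd2 was not called.

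The remaining base genes were not called. Psmd4, the receptor that binds ubiquitin chains, had values of 9.43, 9.46 and 9.43 in NMJ samples, against 9.26, 9.19 and 9.19 in non-NMJ samples. The regions did not overlap, and the difference was 0.23 (limma adjusted p = 0.0832). Of the other ATPase genes, Psmc5 had a difference of 0.21, Psmc2 of 0.15, Psmc4 of 0.13 and Psmc3 of 0.07. Psmc5 had no overlap between regions and the other 3 did. Psmc6 had a difference of -0.12 (95% interval -0.50 to 0.25). After median centring, Psmc4 and Psmc3 stood at -0.01 and -0.07.

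**Figure D3:**
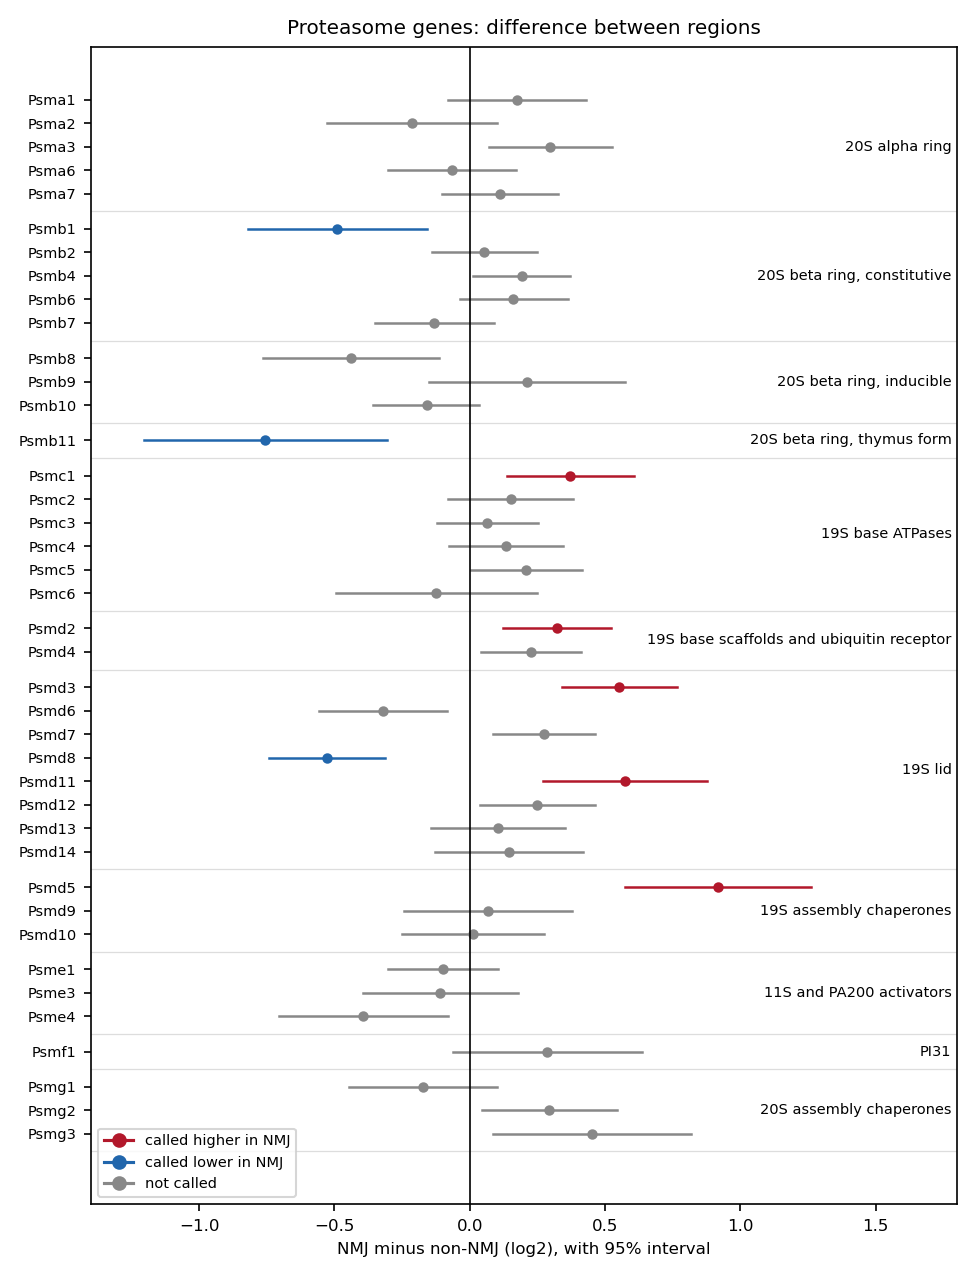
Difference between regions (NMJ minus non-NMJ, log2, horizontal axis) with its 95% interval for each of the 40 proteasome genes, grouped by role, in red where called higher in NMJ regions, blue where called lower and grey where not called. Called genes lie in the cap, its assembly and the beta ring, from -0.75 for Psmb11 to 0.92 for Psmd5, and 0 of 5 alpha ring genes were called.

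Of 10 measured genes of the constitutive rings of the 20S core, 0 rose, 1 fell and 9 were not called, with a median of 0.08 and a range from -0.49 to 0.30. The 10% called stood beside 23% of all rows and 38% of the rows brighter than the median. After quantile normalization, Psmb4 (0.28) and Psmb6 (0.30) were called higher and 0 of the 10 were called lower. The gene that fell as deposited was Psmb1, a beta subunit without a cutting site of its own. Its values were 8.61, 8.53 and 8.83 in NMJ samples, against 8.94, 9.18 and 9.31 in non-NMJ samples. The NMJ values were all lower, though each region spread widely, and Psmb1 was 1.40-fold lower (-0.49 ± 0.14, SE, n = 3 per region, limma adjusted p = 0.0478). It was not called after quantile normalization, nor in 5 of the 6 fits that left out an array (limma adjusted p up to 0.147), and only the fit without non-NMJ replicate 1 called it.

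Psmb6 and Psmb7, which carry cutting sites, stood at the bright end of the arrays. Psmb6 had values of 11.32, 11.23 and 11.25 in NMJ samples, against 11.18, 11.06 and 11.07 in non-NMJ samples. Psmb7 had values of 11.19, 11.22 and 11.06 in NMJ samples, against 11.37, 11.23 and 11.26 in non-NMJ samples. Their differences were 0.16 (95% interval -0.04 to 0.36) and -0.13 (-0.35 to 0.09), with no overlap in either gene, and Psmb7 stood at 0.01 after quantile normalization. Psmb4, a structural beta subunit, had a difference of 0.19 with no overlap, and Psmb2 had one of 0.05, or -0.09 after median centring. In the alpha rings, Psma3 had values of 5.75, 5.65 and 5.70 in NMJ samples, against 5.52, 5.38 and 5.30 in non-NMJ samples. It was the dimmest of the constitutive genes, with no overlap and a difference of 0.30 (limma adjusted p = 0.0686). Psma1 had a difference of 0.17, also with no overlap, and Psma7 had 0.11, Psma6 -0.07 and Psma2 -0.21, all with overlap. Psma7 stood at -0.03 after median centring and Psma6 at 0.04 after quantile normalization.

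Psmb8, Psmb9 and Psmb10 are the inducible beta subunits that replace constitutive ones in the immunoproteasome, the form found in immune cells and induced by interferon. None of the 3 was called, and they did not share a direction. Psmb8 had values of 5.38, 5.30 and 5.26 in NMJ samples, against 5.74, 5.99 and 5.52 in non-NMJ samples. All NMJ values were lower, with a difference of -0.44 ± 0.13 (SE, n = 3 per region, limma adjusted p = 0.0641), which was called after quantile normalization (-0.67) and median centring (-0.58). Psmb10 had values of 6.57, 6.52 and 6.57 in NMJ samples, against 6.72, 6.65 and 6.78 in non-NMJ samples. Its NMJ values were also all lower, with a difference of -0.16 (95% interval -0.36 to 0.04) that was called after quantile normalization (-0.40) and median centring (-0.30). Psmb9 had values of 6.17, 6.05 and 6.16 in NMJ samples, against 6.05, 6.09 and 5.60 in non-NMJ samples. Its regions overlapped and its difference was 0.21 (-0.15 to 0.57), or -0.04 after quantile normalization.

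The exchange of subunits was examined within each array. The log2 value of Psmb9 minus that of Psmb6, the subunit it replaces, differed between regions by 0.05, and that of Psmb10 minus Psmb7 by -0.03. After quantile normalization these values were -0.35 and -0.40, so the exchange values depend on the scaling. A two-sided exact permutation test over the 6 arrays gave p = 0.9 and 0.7 as deposited (adjusted p = 0.9 for both), but 3 arrays against 3 cannot give a p below 0.1, so the test could not have called a difference. Psmb8 could not be set against the subunit it replaces, Psmb5. Psmb11, the form known from the thymus, was the dimmest of the 40 genes, with values of 3.31, 2.70 and 2.82 in NMJ samples, against 3.87, 3.53 and 3.70 in non-NMJ samples. It was called lower (-0.75 ± 0.19, SE, n = 3 per region, limma adjusted p = 0.0316), but its values lay below the median of every array, where the level over background is unknown. It was called in 1 of the 6 fits that left out an array, the fit without NMJ replicate 1.

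Markers of immune cells and genes of antigen presentation were read on the same arrays. Of 13 measured leukocyte markers, 5 rose and 1 fell (38.5% and 7.69%), beside 14.4% and 8.63% of all rows. Their mean level ran from 5.53 to 5.71 in NMJ samples and from 5.05 to 5.21 in non-NMJ samples. Cd74, the chaperone of class II antigen receptors, and Mrc1, the mannose receptor of resident macrophages, rose by 1.96 and 1.85. Other macrophage markers of the list were split. C1qc and Cd163 rose by 0.58 and 0.56, each called in 2 of the 6 fits that left out an array. Csf1r and C1qb stood 0.37 and 0.28 higher without passing. Cd68, a protein of lysosomes, was called lower with a difference of -0.30. C1qa and Adgre1 stood at -0.41 and -0.19 without passing. Csf1r, C1qb, Cd68, C1qa and Adgre1 were chosen after their values were seen. Ptprc, the common leukocyte antigen, stood near the dim end at 3.43 in NMJ samples and 3.24 in non-NMJ samples, and was not called. Of 12 genes of antigen processing and the interferon response, 3 rose, 0 fell and 9 were not called. The 25% called higher stood beside 14.4% of all rows and 23.7% of the rows brighter than the median. B2m, the light chain of class I antigen receptors, rose by 0.54, Tapbp, which helps to load peptides on them, by 0.34, and Stat2, a transcription factor of interferon signalling, by 0.46. Irgm1, a GTPase induced by interferon, stood 0.60 higher without passing (limma adjusted p = 0.112). Neither Tapbp nor Stat2 was called after median centring, Tapbp was not called after quantile normalization either (0.13, limma adjusted p = 0.417), and Tapbp was called in 1 and Stat2 in 2 of the 6 fits that left out an array. Tap1, the peptide transporter gene next to Psmb9, had a difference of 0.09, or -0.05 after median centring. The part of these cells in the values of the inducible subunits was not tested.

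The caps that activate the core without ubiquitin all had differences below 0, and 0 of 3 measured genes was called. Psme4, the large activator PA200 of the nucleus, had values of 8.999, 9.13 and 8.89 in NMJ samples, against 9.43, 9.57 and 9.20 in non-NMJ samples. Every NMJ value was lower, with a difference of -0.39 ± 0.13 (SE, n = 3 per region, limma adjusted p = 0.0785). It was called after quantile normalization (-0.38), after median centring (-0.53), with the replicate number as a block and without non-NMJ replicate 3. Psme1, part of the 11S activator induced by interferon, and Psme3, the nuclear 11S activator, had differences of -0.10 and -0.11 with overlap. Psmf1, also called PI31, binds the core and was first known as an inhibitor. Its values were 7.12, 6.90 and 6.64 in NMJ samples, against 6.69, 6.63 and 6.48 in non-NMJ samples. The regions overlapped, with a difference of 0.29 (95% interval -0.06 to 0.63).

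The chaperones that assemble the core were not called, in 3 of 3 measured genes. Psmg3 had values of 5.82, 6.20 and 6.14 in NMJ samples, against 5.66, 5.76 and 5.38 in non-NMJ samples. Its NMJ values were all higher, with a difference of 0.45 ± 0.15 (SE, n = 3 per region, limma adjusted p = 0.0842). Psmg1 and Psmg2 form a pair in the cell, and their differences were -0.17 with overlap and 0.29 without. Pomp, the maturation factor of the core, which lies outside the Psm names, had a difference of -0.04 ± 0.08 (SE), or 0.07 after quantile normalization.

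**Figure D4:**
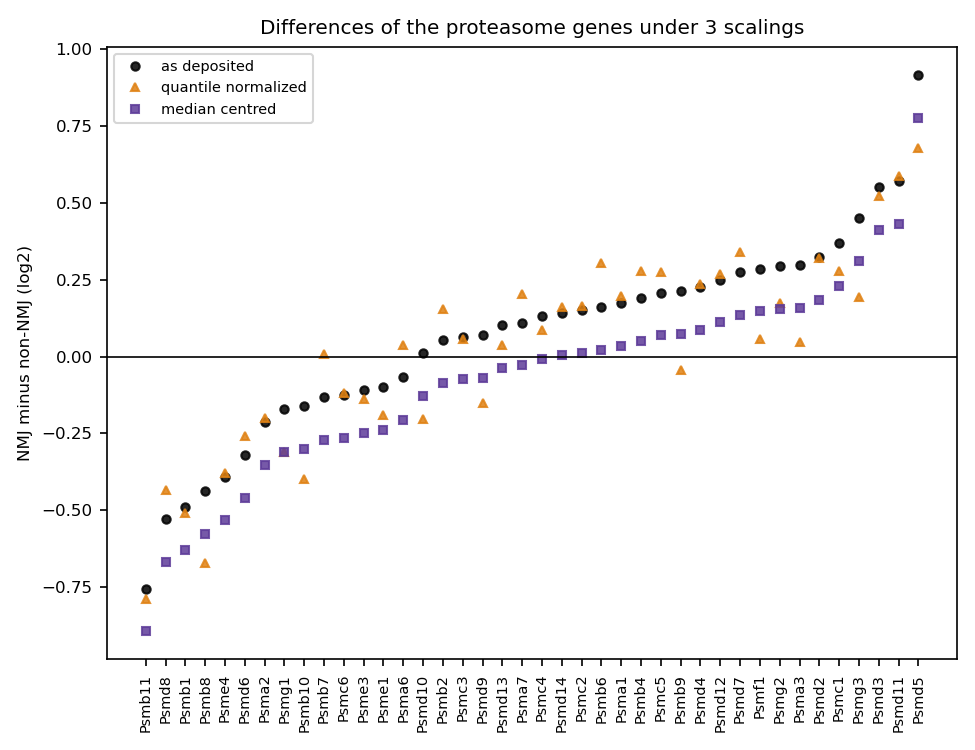
Difference between regions (NMJ minus non-NMJ, log2, vertical axis) of each of the 40 proteasome genes under 3 scalings of the arrays, in the order of the differences as deposited. The median of the 40 genes is 0.12 as deposited and -0.02 after median centring, and Psmd5, Psmd3 and Psmd11 remain above 0 and Psmd8, Psmb1 and Psmb11 below 0 under all 3 scalings.

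Both sets of replicates held an array on which proteasome genes were lowest. Of the 40 genes, 25 had their lowest NMJ value on NMJ replicate 3 and 26 had their lowest non-NMJ value on non-NMJ replicate 3. Over all rows these arrays held the lowest value of their region in 47.9% and 45.4% of rows. The mean of the 40 genes was 8.56, 8.57 and 8.51 on the NMJ arrays, against 8.54, 8.52 and 8.39 on the non-NMJ arrays. Without non-NMJ replicate 3, the median difference of the 40 genes was 0.06, with 2 genes called higher (Psmd3 and Psmd5) and 3 lower (Psmd8, Psmb8 and Psme4). Pearson correlations over all rows were 0.988 to 0.99 among NMJ arrays, 0.98 to 0.983 among non-NMJ arrays and 0.953 to 0.961 between regions.

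Genes of the acetylcholine receptor and junction nuclei, which check the labels of the regions, rose in 8 of 8 cases. Chrna1, the alpha subunit of the muscle receptor, averaged 10.72 in NMJ samples and 4.83 in non-NMJ samples. Other cell types also differed between regions. All 7 measured Schwann cell markers and 7 of 9 fibroblast markers rose, with mean levels of 7.53 to 7.59 and 8.54 to 8.60 in NMJ samples, against 4.89 to 5.23 and 6.93 to 7.15 in non-NMJ samples. Of 8 endothelial markers 5 fell, with mean levels of 6.28 to 6.40 in NMJ samples and 6.64 to 6.84 in non-NMJ samples. Of 8 fast fibre markers 7 fell. Beside these counts, 14.4% of all rows were called higher and 8.63% lower. Among rows brighter than the median the shares were 23.7% and 14.4%. The fast fibre markers had mean levels of 12.22 to 12.26 in NMJ samples and 12.68 to 12.71 in non-NMJ samples. Ckm, Actn3, Mylpf and Mybpc2 had the smallest unadjusted p of the list and were called lower without each array in turn. These calls also held after median centring, after quantile normalization and with the replicate number as a block. Acta1, the main actin of the fibre, averaged 13.13 in NMJ samples and 13.41 in non-NMJ samples, and its call was lost after quantile normalization, with the replicate number as a block and in each of the 6 fits that left out an array. The part of these cell types in the proteasome values was not tested.

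Of 48 measured genes on 5 related lists, which include that of antigen processing and the interferon response, 12 rose and 6 fell. That is 37.5% called, against 23% of all rows and 38% of the rows brighter than the median, shares that also stand behind the counts of single lists given next. The regulators of proteasome genes split: of 11, 2 rose and 2 fell. Nfe2l1, a transcription factor known to raise proteasome genes when the proteasome is short of capacity, had values of 10.84, 10.84 and 10.75 in NMJ samples, against 10.86, 10.81 and 10.71 in non-NMJ samples. The regions overlapped, with a difference of 0.02 ± 0.08 (SE), or -0.12 after median centring. Ngly1, the enzyme that strips sugars from that factor, fell by 0.54 (limma adjusted p = 0.0332), but was called in only 1 of the 6 fits that left out an array, the fit without non-NMJ replicate 3. Nfe2l2, its relative that answers oxidative stress, rose by 0.40 (limma adjusted p = 0.0475), but not after median centring (0.26, limma adjusted p = 0.122), with the replicate number as a block or in 5 of the 6 fits that left out an array (up to 0.147), the exception being the fit without non-NMJ replicate 1. Stat3, a transcription factor of cytokine signalling, rose by 0.74, and Nfyb, a subunit of the factor that binds CCAAT boxes, fell by 0.53. Stat3 was called without each array in turn, and Nfyb in 3 of those 6 fits, losing its call without NMJ replicate 1 or 3 or non-NMJ replicate 2.

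Of 10 measured shuttle genes and partners of p97, the ATPase that pulls ubiquitin-tagged proteins out of complexes, 3 rose and 2 fell. Ufd1, an adaptor of p97, had values of 9.17, 9.18 and 9.13 in NMJ samples, against 8.66, 8.67 and 8.65 in non-NMJ samples. The arrays of each region were close together and the gap was wide beside their spread (0.50 ± 0.07, SE, n = 3 per region, limma adjusted p = 0.00519). Ubxn4, an adaptor of p97 on the endoplasmic reticulum, had values of 9.33, 9.47 and 9.23 in NMJ samples, against 8.45, 8.59 and 8.31 in non-NMJ samples, and was 0.89 higher. Ubxn1, another adaptor, fell by 0.53. Ubqln2, a shuttle that carries tagged proteins to the cap, rose by 0.41, though it was not called after median centring or quantile normalization or without any single NMJ replicate. Uba6, an enzyme that activates ubiquitin, rose by 0.56 but was not called after either rescaling or without NMJ replicate 1 or 2 or non-NMJ replicate 1 or 3. It was the only measured gene of its list, where the ubiquitin genes themselves were not analysed here.

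The last list held other subunits and bound factors, but also adaptors of ubiquitin ligases and a small heat shock protein. Of its 14 measured genes, 3 rose, 2 fell and 9 were not called. Fbxo7, an adaptor of ubiquitin ligases that binds the product of Psmf1, had values of 6.21, 6.22 and 6.17 in NMJ samples, against 5.58, 5.63 and 5.46 in non-NMJ samples. All NMJ values were higher, by 0.64 ± 0.08 (SE, n = 3 per region, limma adjusted p = 0.00336). Zfand2a, a proteasome-bound protein induced by arsenite, rose by 0.76, but not without NMJ replicate 1 or 2. Fbxw7, a ligase adaptor, rose by 0.65, with 2 of the 6 fits that left out an array calling it and neither rescaling doing so. Hspb7, a small heat shock protein of muscle, fell by 0.33, but was called in 0 of those 6 fits and neither after quantile normalization nor with the replicate number as a block.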

How the data were processed

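Per the labels' protocols, RNA from laser-captured regions was amplified and hybridised to Affymetrix exon arrays, 1 per sample. The authors deposited gene-level log2 values; per the submitters' processing notes they used RMA, Affymetrix Expression Console and Transcriptome Analysis Console. No source used here names their versions or a genome build. That the values are log2 follows from their range (0.87 to 13.971). RMA compresses very dim and very bright rows, no detection calls were used, and precision is limited by having 3 arrays per region.

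The test was the moderated linear model of limma 3.58.1 (lmFit and eBayes under R 4.3.3, two-sided, no replicate term), fitted to all 23332 rows and adjusted over all rows by the Benjamini-Hochberg method. Genes were named through the platform's gene table from the 14996 rows with 1 symbol; 1019 rows carried several and 7317 were unnamed. Of the rows with 1 symbol, 14941 had gene identifiers found in RefSeq (GRCm38.p6), which changed 0 symbols. All proteasome genes were named, and from each other list up to 4 with the smallest unadjusted p, plus Nfe2l1, Nfe2l2, Pomp, Tap1, B2m, Ptprc, Chrna1 and Acta1. Adrm1 was also listed but not analysed here. The genes, lists and tests were chosen with earlier results of these data known, and the N-box search was added after the promoter windows had been seen. The limma step was tested on simulated data. The labels do not say what a replicate number marks, so the main fit used no pairing. Deviations of equally numbered arrays correlated at 0.05, 0.04 and 0.18, and so few values can neither show nor exclude pairing. Alternatives were other scalings, variance models, filters and thresholds, the replicate block, and leaving out each array.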

Additional observations from a re-analysis of the deposited data

How the results depend on the processing

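The counts of called proteasome genes moved with most settings. Genes called higher and lower, against 5 and 3, numbered 10 and 6 after quantile normalization, 2 and 7 when arrays were median-centred, 10 and 4 under a robust prior with an intensity trend, 6 and 5 with array weights, 7 and 5 without the dimmest 25% of rows, 11 and 5 without the dimmest 50% and 9 and 6 among rows with 1 symbol. At an adjusted p under 0.01 they numbered 2 and 1, under 0.1 11 and 6, and at no less than 1.5-fold 1 and 1. Leaving out single arrays gave 2 to 4 higher and 1 to 3 lower. Over all rows, calls numbered 2776 under 0.01, 3565 at 1.5-fold and 3373 to 4706 without single arrays. With the replicate block, 5064 rows, 4 higher and 4 lower proteasome genes were called; the block ended the call of Psmd2 and added that of Psme4. NMJ replicates 1 and 3 correlated best with their own number (0.05 and 0.18) and NMJ replicate 2 with another number (0.11). These correlations neither show nor exclude pairing.

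Psmd3, Psmd5 and Psmd8 were called in all 15 refits at an adjusted p under 0.05. Directions turned only in genes that were not called. After median centring the differences were -0.029 for Psma7, -0.087 for Psmb2, -0.074 for Psmc3, -0.007 for Psmc4, -0.036 for Psmd13, -0.071 (the Psmd9 difference), -0.129 (the Psmd10 difference), -0.122 for Nfe2l1 and -0.049 for Tap1. After quantile normalization they were 0.039 for Psma6, 0.008 for Psmb7, -0.045 for Psmb9, -0.15 for Psmd9, -0.203 for Psmd10, 0.07 for Pomp and -0.006 for Tap1. With array weights, Psmd9 stood at -0.017 and Psmd10 at -0.006. Leaving out single arrays gave -0.038 to 0.164 for Psmd9, -0.046 to 0.105 for Psmd10 and -0.022 to 0.048 for Nfe2l1. Quantile normalization moved the exchange values of Psmb9 and Psmb10 to -0.35 and -0.40, and leaving out arrays gave -0.09 to 0.16 and -0.09 to 0.02. The cause was not tested. Alternatives for genes outside the family were added after seeing the data. The number of arrays limits what differences of this size can show, and the level of Psmb11 over background is unknown.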
